A study of Mus musculus with 3 samples.

Results

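Efferocytosis is the clearance of dying cells by phagocytes, and 9 genes of its recognition step were followed here in immune cells washed from mouse airspaces after ozone: the receptors Mertk, Axl, Lrp1, Stab1 and Cd300a, the integrin subunit Itgav, and the secreted bridging proteins Pros1, Gas6 and Mfge8. They were taken by symbol from the 33696 genes of the deposited feature tables, and all 9 were found. The cells came by bronchoalveolar lavage from wild-type C57BL/6J mice of 12 weeks. The mice had breathed filtered air, ozone at 1 ppm or ozone at 1.5 ppm for 3 hours and were killed 22 to 24 hours after exposure. Lavage cells of 3 to 4 mice were pooled for each exposure and made into 1 droplet library (10x Chromium, 3′ chemistry with unique molecular identifiers, UMIs). Each exposure is therefore 1 sample, with no replicate and no test between exposures. Exposure cannot be told apart from pool and library, and every interval given covers counting error alone.

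A dying cell exposes phosphatidylserine on its surface, and phagocytes read this signal either directly or through a soluble bridge. Gas6 and protein S (Pros1) bind phosphatidylserine with one end and the TAM receptor kinases (Tyro3, Axl, Mertk) with the other. Mfge8 links it instead to integrins that contain the αv chain (Itgav). Lrp1 is a large endocytic receptor that takes part in uptake, stabilin-1 (Stab1) is a scavenger receptor that binds phosphatidylserine, and Cd300a is a phosphatidylserine-binding receptor that carries inhibitory signals in leukocytes. Alveolar macrophages, the resident phagocytes of the airspace, are known for their TAM receptors.

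The promoters of the TAM receptors and of their ligands are shown first, because the ligand Pros1 was found in most macrophages and the ligand Gas6 in almost none. Each line gives the 250 bases before the RefSeq start site on the gene's strand, from build GRCm38.p6, which is older than the GRCm39 build of the counts. Capitals mark 2 motifs on either strand, the GC box GGGCGG bound by Sp1 and the PU.1 motif GAGGAAG.
Mertk (chr2:128698665-128698914, plus strand): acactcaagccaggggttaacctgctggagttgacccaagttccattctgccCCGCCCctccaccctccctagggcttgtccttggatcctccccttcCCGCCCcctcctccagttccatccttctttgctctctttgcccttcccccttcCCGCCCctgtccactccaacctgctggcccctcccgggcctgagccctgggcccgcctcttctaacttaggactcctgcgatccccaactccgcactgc
Axl (chr7:25788734-25788983, minus strand): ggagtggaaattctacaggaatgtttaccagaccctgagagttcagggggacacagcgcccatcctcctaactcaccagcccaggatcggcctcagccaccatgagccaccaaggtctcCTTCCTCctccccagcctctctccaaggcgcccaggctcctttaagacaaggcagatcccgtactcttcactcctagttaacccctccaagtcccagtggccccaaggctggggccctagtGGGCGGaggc
Pros1 (chr16:62854057-62854306, plus strand): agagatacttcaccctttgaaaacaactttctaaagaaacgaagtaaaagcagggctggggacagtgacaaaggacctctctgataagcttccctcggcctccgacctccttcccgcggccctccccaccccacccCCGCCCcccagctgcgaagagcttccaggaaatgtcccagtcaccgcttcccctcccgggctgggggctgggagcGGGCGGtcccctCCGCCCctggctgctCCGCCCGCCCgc
Gas6 (chr8:13494536-13494785, minus strand): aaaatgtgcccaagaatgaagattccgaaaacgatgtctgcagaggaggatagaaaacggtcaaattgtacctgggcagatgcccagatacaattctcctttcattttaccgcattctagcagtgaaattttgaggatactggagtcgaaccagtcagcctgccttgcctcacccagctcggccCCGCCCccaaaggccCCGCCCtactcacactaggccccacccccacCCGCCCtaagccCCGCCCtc
The GC box occurred 3 times before Mertk, 1 time before Axl, 5 times before Pros1 (2 of them overlapping) and 4 times before Gas6. Of the members not shown, Mfge8 had it 4 times and Lrp1 1 time, and Itgav, Stab1 and Cd300a lacked it. In the same window 32.7% of 32851 mouse promoters held it. The PU.1 motif occurred before Axl, Itgav and Cd300a, 1 time each, against 10.6% of all promoters. No member's window held the AP-1 motif TGANTCA, which 6.75% of promoters held, and 1 antioxidant response element TGACNNNGC stood before Lrp1 (10.2% of promoters). GC content was 63.6% before Mertk, 60.0% before Axl, 64.4% before Pros1 and 54.8% before Gas6, against a median of 52.4%. These letters describe the windows and mark no measured binding site.

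After a filter on depth and mitochondrial share, 3479 (air), 2241 (1 ppm) and 6577 (1.5 ppm) cells remained, with median depths of 13663, 15743 and 11986 UMIs. Barcodes over 10% mitochondrial UMIs, which the filter removed, were 34.2%, 30.6% and 9.07% of the libraries. No more than 7 cell barcodes were shared by any pair of libraries. Alveolar-macrophage-like cells, 3311, 2130 and 5662 of them in 13 clusters, were named from 16 fixed macrophage markers, all with UMIs in each library. The summed level of the macrophage markers was 19464, 21335 and 15079 UMIs of each 1000000 (CPM), so it was lowest at 1.5 ppm. Detection alone does not set the class apart at this depth, since in air it also held UMIs of all 16 airway epithelial markers, at 164 CPM summed.

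Both TAM receptors of the list were lowest in the 1.5 ppm library and differed in where they were highest. Mertk stood at 931 CPM in air (interval 923 to 940), 816 CPM at 1 ppm (807 to 825) and 658 CPM at 1.5 ppm (653 to 663), from 46273, 30542 and 59060 UMIs. The levels were ordered air, 1 ppm, 1.5 ppm, with no overlap of intervals. The ratio to air was 0.876 (0.864 to 0.889) at 1 ppm and 0.706 (0.698 to 0.715) at 1.5 ppm. Axl, the other TAM receptor kinase of the list, stood at 518 CPM (512 to 525), 564 CPM (557 to 572) and 409 CPM (404 to 413). Its highest level was thus at 1 ppm, at 1.09 times air (1.07 to 1.11), and its lowest at 1.5 ppm, at 0.789 times air (0.776 to 0.801). Both ratios to air share the 1 air library. Between the ozone libraries, 1.5 ppm over 1 ppm, the ratio was 0.806 (0.795 to 0.817) for Mertk and 0.724 (0.712 to 0.737) for Axl.

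Nearly every macrophage held these receptor transcripts. A UMI of Mertk was found in 98.9%, 99.3% and 98.1% of alveolar-macrophage-like cells in air, 1 ppm and 1.5 ppm. With each cell thinned to 4000 UMIs, which left out 27, 19 and 192 shallower cells, the shares were 92.6% (91.7 to 93.5%), 91.9% (90.6 to 93.0%) and 87.5% (86.6 to 88.4%). Axl was found in 86.4% (85.1 to 87.5%), 88.7% (87.3 to 90.0%) and 79.5% (78.4 to 80.5%) of thinned cells, and in 98.6%, 99.6% and 96.9% unthinned. In neutrophil-like cells, not thinned and at a median of 2389 UMIs against 13868, 16002 and 13084 in the macrophages, 8.79% held a UMI of Mertk and 9.89% one of Axl. For both genes the thinned shares were lowest at 1.5 ppm, and the intervals of air and 1 ppm overlapped.

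Of the bridging proteins, Pros1 was the one carried by most macrophages. Pros1 stood at 254 CPM in air (250 to 259), 239 CPM at 1 ppm (234 to 244) and 207 CPM at 1.5 ppm (204 to 210). The 3 intervals did not overlap, and the order was that of Mertk, with ratios to air of 0.941 (0.916 to 0.967) and 0.815 (0.797 to 0.834). Thinned, 58.4%, 60.0% and 54.2% of cells held a UMI of Pros1, against 89.6%, 93.2% and 85.9% unthinned and 7.69% in neutrophil-like cells at their own depth.

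Gas6, the other TAM ligand, was at or near 0 in macrophages of all libraries. It had 5 UMIs in air, 0 at 1 ppm and 1 at 1.5 ppm, over 49679162, 37419874 and 89779799 UMIs. The count of 0 at 1 ppm allows a level of up to 0.0802 CPM by a limit of 3 counts, and no ratio was formed. Gas6 stood far above that, in few cells, at 23.8 CPM (10.9 to 45.1) in 96 airway-epithelial-like cells and 27.9 CPM (16.8 to 43.5) in the 48 cells of cluster 20. Cluster 20 was left unnamed: it held 9 of 15 alveolar epithelial markers, but its leading gene was the airway marker Scgb1a1.

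Mfge8, the bridge to αv integrins, was scarce in macrophages, at 3.00 CPM in air (2.54 to 3.52), 3.98 CPM at 1 ppm (3.37 to 4.68) and 4.42 CPM at 1.5 ppm (4.00 to 4.88). The air and 1 ppm intervals overlapped and those of air and 1.5 ppm did not. The ratio to air was 1.33 (1.05 to 1.68) and 1.47 (1.22 to 1.79), from 149, 149 and 397 UMIs. Only 3.56%, 5.54% and 5.28% of cells held a UMI, and after thinning 1.25%, 1.33% and 1.24%, with overlapping intervals, levels too close to 1 UMI to read a change from. The unnamed cluster 20 held Mfge8 at 64.6 CPM (46.9 to 86.7). The 15 alveolar epithelial markers, as summed within the macrophage class, stood at 93.2 CPM in air (15 detected), 87.7 CPM at 1 ppm (14 detected, Lamp3 at 0) and 143 CPM at 1.5 ppm (15 detected). Epcam, 1 of these markers, was also a leading gene of macrophage cluster 4, so the sum need not be of epithelial RNA alone. The part of epithelial RNA in the Mfge8 values was not tested.

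**Figure D1:**
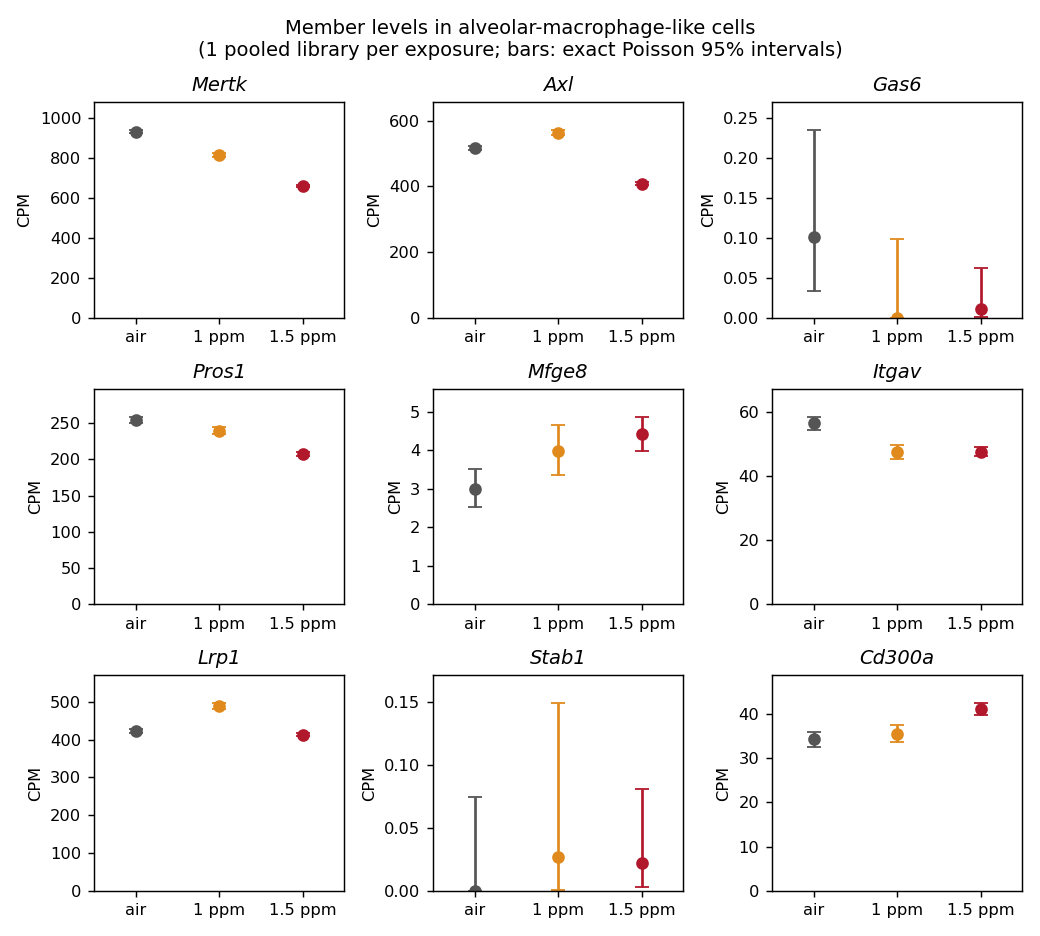
Each panel plots the level of 1 member (CPM, from 0) in alveolar-macrophage-like cells of the filtered air, 1 ppm and 1.5 ppm libraries, with exact Poisson 95% intervals. Mertk and Pros1 step down from air to 1.5 ppm, Axl and Lrp1 are highest at 1 ppm, and Gas6 and Stab1 lie at or near 0.

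The receptors outside the TAM family differed among themselves in the order of the libraries, and Lrp1 had the order of Axl. Itgav, the αv chain, stood at 56.5 CPM in air (54.5 to 58.7), 47.5 CPM at 1 ppm (45.3 to 49.7) and 47.7 CPM at 1.5 ppm (46.3 to 49.2). Both ozone libraries lay below air, at 0.840 (0.791 to 0.891) and 0.844 (0.805 to 0.885) times its level, and did not differ from each other beyond counting error, with a ratio of 1.01 (0.951 to 1.06). Lrp1 stood at 423 CPM (417 to 428), 489 CPM (481 to 496) and 413 CPM (409 to 417). It was highest at 1 ppm, at 1.16 times air (1.13 to 1.18), and at 1.5 ppm its ratio to air was 0.977 (0.961 to 0.994).

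Cd300a, the inhibitory receptor, stood at 34.2 CPM (32.6 to 35.9), 35.5 CPM (33.6 to 37.4) and 41.0 CPM (39.7 to 42.4). Air and 1 ppm overlapped, and 1.5 ppm lay above both, at 1.20 times air (1.13 to 1.27). A UMI of it was found in 28.4%, 32.8% and 30.1% of cells and, thinned, in 11.5%, 11.4% and 12.2%, against 0 of 96 airway-epithelial-like cells at a median of 1371 UMIs. Neutrophil markers summed within the macrophage class were 67.3 CPM in air (11 of 13 detected, Retnlg and Ly6g at 0), 60.6 CPM at 1 ppm (12 detected, Ly6g at 0) and 54.0 CPM at 1.5 ppm (all 13 detected). Thbs1, a leading gene of the unnamed cluster 11, where Cd300a stood at 318 CPM, had 0, 0 and 69 UMIs in the macrophages. The part of either kind of cell in the Cd300a values was not tested. Stab1 had 0, 1 and 2 UMIs in the macrophages of air, 1 ppm and 1.5 ppm. The 0 in air allows up to 0.0604 CPM, and no ratio was formed.

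Against a size threshold of 1.5-fold in either direction, no member stood out in any comparison. Of the 9 members 7 had the 100 UMIs over the 3 libraries needed to be considered (all but Gas6 and Stab1). At 1 ppm over air 0 of 7 passed, where 5.04% of all 12871 genes considered did. At 1.5 ppm over air 0 of 7 passed, against 15.8% of all genes, and at 1.5 ppm over 1 ppm 0 of 7, against 13.5%. With only 7 genes, a count of 0 beside these shares is no result about the members.

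The member ratios spread on both sides of 0. At 1 ppm over air 3 of the 7 lay below 0 (Mertk, Pros1 and Itgav), with a median log2 ratio of 0.05, against -0.05 over all genes, of which 58.2% lay below 0. At 1.5 ppm 5 lay below 0, with a median of -0.24 against -0.04 over all genes, of which 54.7% lay below 0. Mertk had the lowest log2 ratio there, -0.50, and 6.63% of all genes considered had a lower one. Mfge8 had the highest, 0.55, close under the 1.5-fold threshold, and it passed that threshold with a stricter cell filter (log2 ratio 0.66), in cells of 2.5 to 4% mitochondrial UMIs (0.99) and without the cluster led by Hmox1 and Slc7a11 (0.76). In that mitochondrial band Mfge8 also passed at 1.5 ppm over 1 ppm (0.68).

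Several properties of the libraries moved alongside these ratios. Macrophages had median mitochondrial shares of 4.12% (air), 3.97% (1 ppm) and 2.31% (1.5 ppm). Those with 3 or more UMIs of G2 and M phase genes, without thinning, made up 29.0%, 29.1% and 39.7%. At 1.5 ppm over air the log2 ratio of Mertk was -0.38 without those G2 and M phase cells and -0.43 in cells of 2.5 to 4% mitochondrial UMIs. That of Axl was -0.25 in both settings, and that of Pros1 -0.18 and -0.29. The part of these properties in the full difference was not tested. Mertk spans 103939 bases, and the 500 genes nearest to it in span had a median log2 ratio of -0.19 at 1.5 ppm and -0.17 at 1 ppm over air. Relative to genes of like span the Mertk log2 ratio was thus -0.31 at 1.5 ppm and -0.02 at 1 ppm, and for Pros1 it was -0.13 and 0.07.

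**Figure D2:**
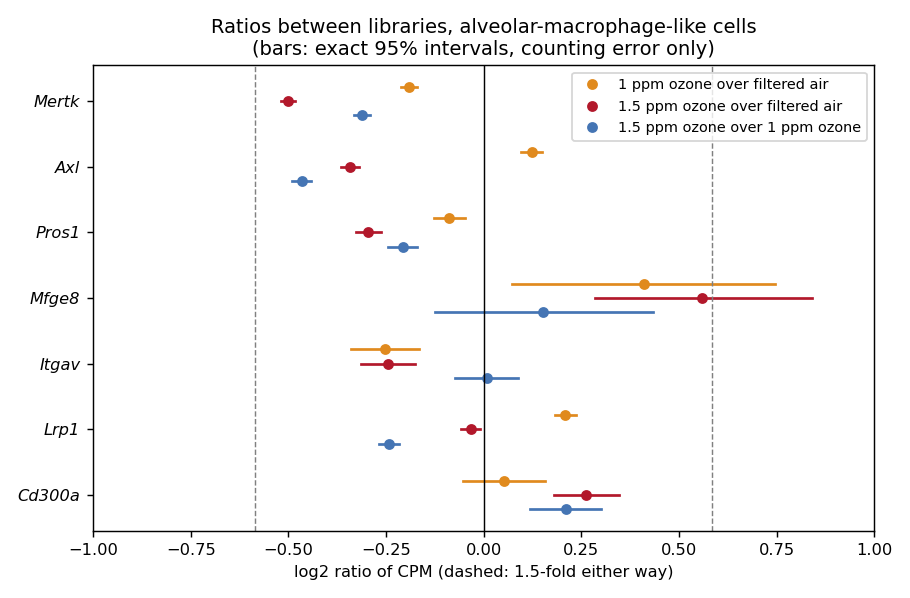
The log2 ratio of CPM (x axis) for the 7 members with enough UMIs (y axis) is plotted for the 3 pairs of libraries, with exact 95% intervals for counting error and dashed lines at 1.5-fold. All points lie between the dashed lines, Mertk furthest left (-0.50) for 1.5 ppm over air among the ratios to air and Mfge8 furthest right (0.55).

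Within the macrophage class, with the 3 libraries summed, Cd300a and Mfge8 were highest in the cluster where Mertk, Pros1 and Lrp1 were lowest. The 13 clusters were drawn from the expression of the same cells, so these values are descriptions. Mertk ranged from 328 CPM in cluster 13, led by the oxidative stress genes Slc7a11 and Hmox1, to 1565 CPM in cluster 7, which had the nuclear RNA Malat1 among its leading genes and a median of 6558 UMIs. Cluster 13 took its class name on 6 of the 16 macrophage markers, the fewest of any cluster in the class, against 13 in cluster 7. Pros1 had its lowest and highest levels in clusters 13 and 7, 85.6 and 353 CPM, and so did Lrp1, 287 and 628 CPM. Cd300a and Mfge8 had their highest levels in cluster 13, 142 and 10.8 CPM. The Mfge8 level there rested on 39 UMIs, 25 of them in air. At 1.5 ppm alone Mfge8 had 5 UMIs in cluster 13, 4.10 CPM (1.33 to 9.57), below its 8.45 CPM in cluster 3. The lowest Cd300a level, 15.04 CPM, was in cluster 2, led by Il1b and the sterol synthesis genes Cyp51 and Idi1. Mfge8 was lowest, 1.02 CPM, in cluster 12, led by Klf2 and Slpi. That value is 3 UMIs (0.210 to 2.97 CPM), and its interval overlaps that of cluster 0, 1.85 CPM (1.32 to 2.54).

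Axl and Itgav had their extremes in other clusters when the libraries were summed. Axl ranged from 305 CPM in cluster 19, which had 84 cells, to 580 CPM in cluster 0, led by Fabp1 and Ear2. The low value is 250 UMIs (268 to 345 CPM), and its interval overlaps that of cluster 13, 343 CPM (324 to 363). At 1.5 ppm alone Axl was lowest in cluster 13, at 294 CPM (265 to 326), against 308 CPM (265 to 357) in cluster 19. Itgav ranged from 41.5 CPM in the mitotic cluster 10, led by Ube2c and Cenpf, to 119 CPM in cluster 19. In the cycling cluster 6, led by the histone genes H1f5 and H2ac24, Mertk stood at 444 CPM, Axl at 322 CPM and Pros1 at 150 CPM, all below their level in the class as a whole (768, 472 and 227 CPM).

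**Figure D3:**
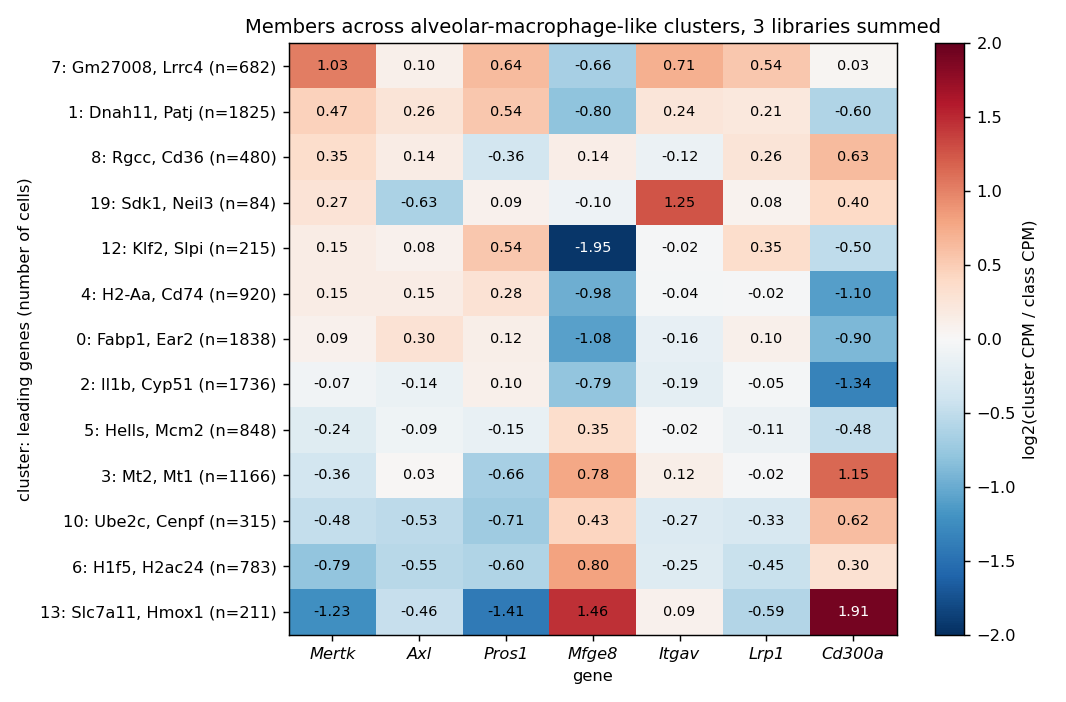
Rows are the 13 alveolar-macrophage-like clusters with their leading genes and cell numbers, columns the 7 members with enough UMIs, and colour and figures give the log2 ratio of the cluster's CPM to that of the class, all libraries summed. Mertk and Pros1 are lowest in cluster 13 (Slc7a11, Hmox1), where Mfge8 and Cd300a are highest.

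The lower Mertk level at 1.5 ppm was seen in every cluster that could be compared. Of 11 clusters with at least 50 cells in both libraries, Mertk was lower at 1.5 ppm than in air in 11. Cluster 1, led by Dnah11 and Patj, held it at 1102 CPM in air against 926 CPM at 1.5 ppm, cluster 6 at 585 against 427 CPM and cluster 7 at 1602 against 1478 CPM. In each of the 11 the fall was smaller than in the class as a whole, where the ratio was 0.706. The makeup of the class differed too. Cluster 1 had 1141 of 3311 cells in air and 251 of 5662 at 1.5 ppm. Cluster 2, with Mertk at 731 CPM over the summed libraries, had 124 and 1374. The part of this shift in the ratio of the class was not tested. Axl was lower at 1.5 ppm in 10 of the 11, Pros1 and Itgav in 8, Mfge8 in 5, Cd300a in 4 and Lrp1 in 2. At 1 ppm over air 10 clusters could be compared: Mertk was lower in 9 of them, Itgav in 10 and Lrp1 in 0. Cells of 1 library share their pool, so clusters are not replicates.

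The genes most like each member were sought over 34 points, each 1 cluster in 1 library, by Pearson's r of log2(CPM + 10) among 10538 genes. Mertk was nearest to Flvcr2, a haem and choline transporter family gene (r = 0.975), Cd274, which encodes PD-L1 (0.965), and Cttnbp2nl (0.960). Axl was nearest to Sirpa, the receptor for the Cd47 brake on engulfment (0.899), Ear2, an eosinophil-associated ribonuclease gene of alveolar macrophages (0.885), and H13, a signal peptide peptidase (0.869). Pros1 was nearest to Klra2 (0.957), Pygl, a glycogen phosphorylase (0.948), and Agmo, an ether lipid monooxygenase (0.944). Among members, r was 0.855 for Mertk with Pros1, 0.609 for Mertk with Axl and -0.726 for Pros1 with Cd300a. The points share libraries and differ in depth and RNA makeup, which these coefficients also carry.

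Cd300a was nearest to Fnip2 (0.870), Mreg (0.863) and Rasa3 (0.857). Mfge8 was nearest to Clec5a (0.740), Basp1 (0.737) and, like Cd300a, Mreg (0.734), and its r with Cd300a was 0.667. Mfge8 was at most 12.3 CPM at any point (cluster 13 in air) and had 1 UMI in cluster 7 of air. With 10 CPM added before the log, its coefficients rest on levels near the floor. Itgav was nearest to Ttc3 (0.892), Etnk1 (0.885) and Sh3kbp1 (0.883), and Lrp1 to Stk10 (0.832), the lysosomal mannosidase Man2b1 (0.820) and Gpcpd1 (0.814).

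Outside the macrophage class each member had its own distribution over cell types, given here with the 3 libraries summed because few cells were available. Cd300a was highest at 319 CPM (255 to 394) in 91 neutrophil-like cells and 318 CPM (277 to 363) in the 249 cells of the unnamed cluster 11, with Ccl4, Ccl3 and Thbs1 as its top genes, against 38.0 CPM (37.1 to 38.9) in macrophages. Of neutrophil-like cells 47.3% held a UMI of Cd300a. In the 1.5 ppm library alone Cd300a stood at 274 CPM (212 to 349) in 79 neutrophil-like cells, so the gap was present within 1 library.

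Stab1 was found mainly in cluster 14, an unnamed cluster of 159 cells led by C1qa and Apoe with class II genes, at 41.3 CPM (32.5 to 51.7) and in 18.9% of its cells. Cluster 14 held 5 of 10 markers of type 1 conventional dendritic cells, but its leading genes were markers of monocytes and interstitial macrophages. Whether it mixes more than 1 kind of cell was not tested. Its next highest level was 14.6 CPM (6.99 to 26.8) in cluster 11, against 0.0170 CPM in macrophages. Cluster 14 also held Gas6 at 18.5 CPM (12.8 to 25.8), Cd300a at 165 CPM and Mfge8 at 19.0 CPM, and Lrp1 at 389 CPM in 84.3% of its cells. Itgav was highest in cluster 20, 226 CPM (192 to 265), followed by cluster 14 at 115 CPM (99.7 to 131) and T-cell-like cells at 108 CPM (80.9 to 141), whose intervals overlap, and stood at 50.1 CPM in macrophages.

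**Figure D4:**
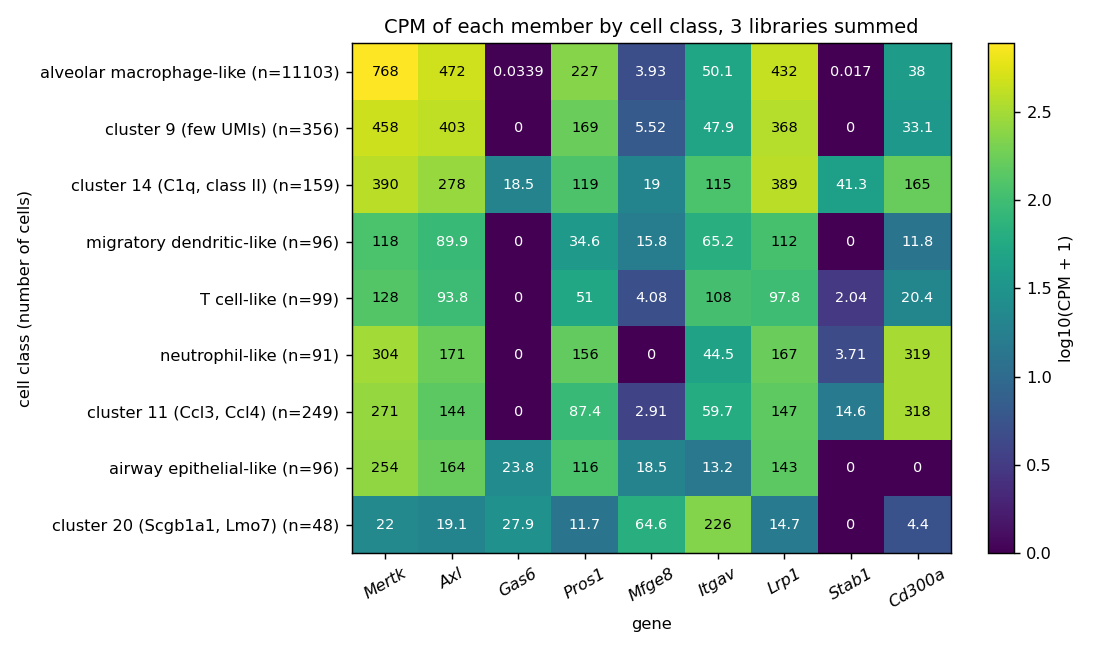
Rows are cell classes and unnamed clusters with their cell numbers, columns the 9 members, figures the CPM over the summed libraries and colour log10(CPM + 1). Mertk, Axl, Pros1 and Lrp1 are highest in macrophages, Cd300a in neutrophil-like cells and cluster 11, Stab1 in cluster 14, and Mfge8 and Itgav in cluster 20.

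Mertk, Axl, Pros1 and Lrp1 also gave counts in other classes, and in several of these most Mertk counts sat in a few barcodes. In neutrophil-like cells Mertk stood at 304 CPM (242 to 378), yet 80 of its 82 UMIs were in the 6 of 91 cells that held 5 or more. In cluster 11, 11 of 249 cells held 169 of 186 UMIs. In airway-epithelial-like cells, 4 of 96 held 90 of 96 UMIs, and in migratory-dendritic-like cells, 6 of 96 held 101 of 119. In macrophages 82.3% of cells held 5 or more.

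Those barcodes were deep and carried macrophage genes together. The 6 neutrophil-like barcodes had a median of 12081 UMIs against 2286 in the others. They held Axl at 598 CPM against 15.2 CPM in the others and the macrophage gene Chil3 at 5533 CPM against 1109 CPM, the level in the macrophage class being 7365 CPM in cells with 5 or more Mertk UMIs. In cluster 11 the corresponding Axl levels were 437 and 63.2 CPM and the Chil3 levels 7010 and 1653 CPM. Cd300a was the reverse, at 125 CPM in the 6 neutrophil-like barcodes and 390 CPM in the other 85 cells of that class. Doublets were not removed, and whether such barcodes hold more than 1 cell was not tested. In the 1.5 ppm library the ratio of Axl to Mertk UMIs was 0.621 in macrophages, 0.556 (0.377 to 0.809) in neutrophil-like cells and 0.532 (0.413 to 0.683) in cluster 11. That of Pros1 to Mertk was 0.315 (0.310 to 0.320) in macrophages and 0.323 (0.237 to 0.434) in cluster 11. In neutrophil-like cells it was 0.519 (0.348 to 0.762), above the macrophage value.

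In cluster 14 a larger share of cells, 40 of 159 (25.2%), held 5 or more Mertk UMIs, and these held 635 of its 718 Mertk UMIs. They too were deeper, at a median of 14480 UMIs against 8973 in the others, and held Chil3 at 3068 CPM. Among its other cells, Lrp1 stood at 311 CPM and Axl at 206 CPM, above the 65.8 and 15.2 CPM of the neutrophil-like cells below the same number, while Chil3 was 439 CPM. The cluster's ratio of Lrp1 to Mertk UMIs at 1.5 ppm was 1.73 (1.43 to 2.10) against 0.628 (0.620 to 0.636) in macrophages. In the other libraries cluster 14 had fewer Lrp1 than Mertk UMIs, 244 against 286 in air and 176 against 261 at 1 ppm. Macrophages had 20991 against 46273 in air and 18282 against 30542 at 1 ppm.

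The wider efferocytosis machinery was examined through 75 other genes listed by role, 57 of which had enough UMIs in macrophages. At 1 ppm over air 0 were at least 1.5-fold higher and 1 lower (2.02% and 3.02% of all genes), with a median log2 ratio of -0.03. At 1.5 ppm over air 3 were higher and 2 lower (11.5% and 4.30% of all genes), with a median of -0.20 against -0.04 over all genes, and 38 of 57 lay below 0, as did 54.7% of all genes. At 1.5 ppm over 1 ppm 3 were higher and 2 lower (10.4% and 3.16% of all genes). By role, the medians at 1.5 ppm over air were -0.20 for 15 genes of engulfment machinery or receptor shedding, -0.23 for 16 of digestion and control after uptake, -0.06 for 14 receptors, 0.07 for 5 integrin subunits, 0.09 for 4 bridging proteins and -0.20 for 3 brakes.

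The genes past the threshold against air were Cd36, Abca1, Msr1, Slc2a1, Socs3 and Socs1. Cd36, a scavenger receptor that binds oxidised phospholipids and thrombospondin, stood at 310, 287 and 155 CPM in air, 1 ppm and 1.5 ppm. Abca1, which exports cholesterol after uptake, stood at 225, 231 and 128 CPM, a ratio of 0.568 (0.553 to 0.583) at 1.5 ppm over air. Both were lowest in the 1.5 ppm library. Msr1, scavenger receptor A, stood at 14.4, 18.8 and 25.7 CPM, a ratio of 1.79 (1.65 to 1.95) at 1.5 ppm over air. Slc2a1, a glucose transporter, stood at 5.58, 8.02 and 10.3 CPM. Socs3, an inhibitor of cytokine signalling that acts downstream of TAM receptors among others, had 3.00, 4.36 and 9.01 CPM, a ratio of 3.00 (2.52 to 3.60). Socs1 had 62, 30 and 160 UMIs, and its ratio at 1 ppm over air, 0.642 (0.401 to 1.01), is limited by those counts.

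Partners of the members, named for their role after their values were seen, completed the picture. Tyro3, the remaining TAM receptor, had 0, 1 and 1 UMIs, and Timd4, a phosphatidylserine receptor of other resident macrophages, 0, 0 and 1. Of the integrin β chains that pair with αv, Itgb1 stood at 255, 242 and 267 CPM and Itgb5 at 134, 131 and 120 CPM, while Itgb3 had 2, 0 and 0 UMIs and Itgb8 had 0 in each library, which allows at most 0.0802 CPM. Adam17, the protease that sheds Mertk from the surface, stood at 150, 134 and 130 CPM. The bridging protein thrombospondin-1 (Thbs1) had 0, 0 and 69 UMIs in macrophages. It was a leading gene of cluster 11, which had 248 of its 249 cells in the 1.5 ppm library, and the part of that cluster's RNA in the 69 UMIs was not tested.

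**Figure D5:**
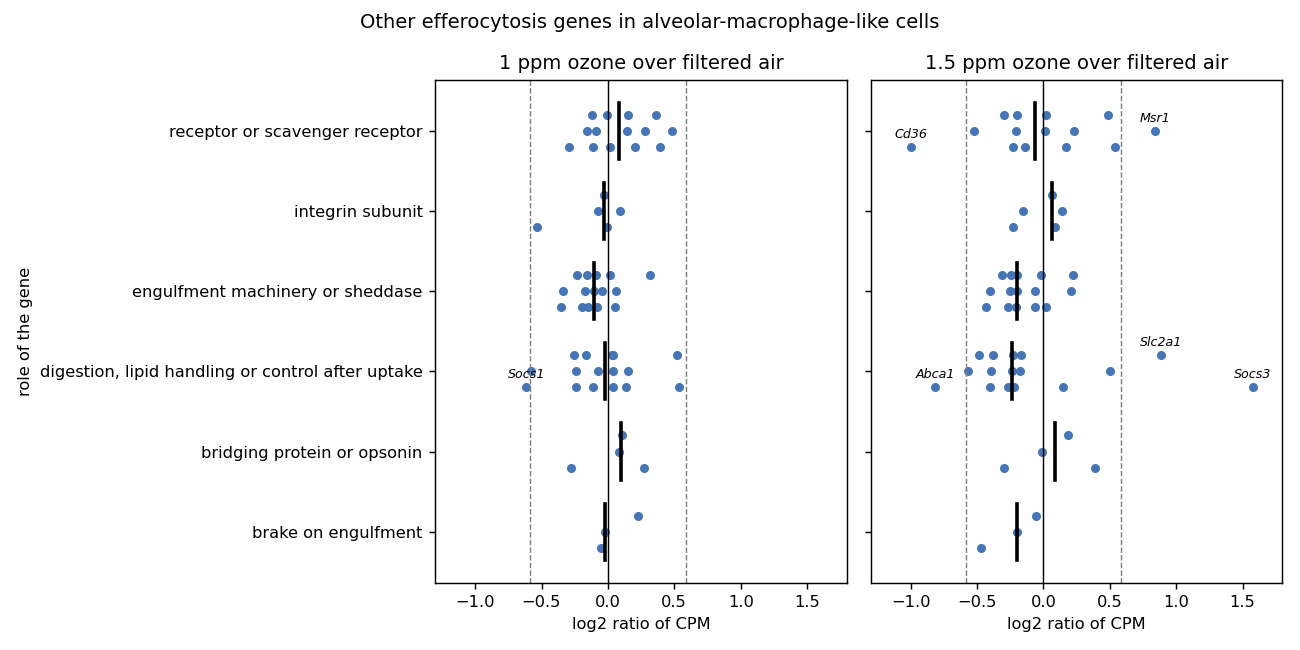
Each point is 1 of 57 other efferocytosis genes, placed by log2 ratio of CPM (x axis) and role (y axis) for 1 ppm (left) and 1.5 ppm (right) over filtered air, with black bars at the median of each role and dashed lines at 1.5-fold. Names mark the genes past the lines, 1 at 1 ppm and 5 at 1.5 ppm.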

How the data were processed

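Whole-number UMI counts per gene and barcode were deposited by the authors, and the file headers name Cell Ranger 8.0.0. The build was GRCm39 (mm39), per the submitters' processing notes. The setting for introns is not given in the sources used. Barcodes with at least 500 UMIs, 300 genes and at most 10% mitochondrial UMIs were kept (12297 cells). Doublets were not removed. Counts were scaled to a common depth, log transformed and reduced to 30 components of 2000 variable genes, and a shared-neighbour graph (15 neighbours) was split by the Leiden method at resolution 1.0 (leidenalg 0.10.2, scanpy 1.11.5) into 21 clusters. A cluster took a class name where at least 3 fixed markers were found in 25% of its cells at 25% or more of their highest level, unless its leading 10 genes belonged to another class or its depth was low. This scoring, like the members and gene lists, was chosen with earlier results of these data known.

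UMIs were summed per library and class and given as CPM. Intervals at 95% are exact Poisson for levels, exact conditional for ratios and Clopper-Pearson for shares. Log2 ratios add 1 UMI to each sum, and genes needed 100 UMIs over the 3 libraries. A limit of 3 counts bounds a count of 0. Ratios and intervals were tested on simulated data. Spans came from GENCODE M21 by gene identifier (97.6% of the genes considered matched), promoters from RefSeq GRCm38.p6. The genes named were all members, other efferocytosis genes past 1.5-fold in either ozone library against air, and the 3 genes nearest to each member with 500 UMIs by correlation over clusters of at least 50 cells in a library.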

Additional observations from a re-analysis of the deposited data

How the results depend on the processing

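No paired analysis was possible because each exposure is 1 pooled library. The count of 0 members past 1.5-fold held for 1 ppm over air under all 15 alternatives, of which the loosest count filter (1 UMI in each library) still leaves out Gas6 and Stab1. Neither that filter, a filter at 500 UMIs nor a 2-fold threshold could have raised the count. For 1.5 ppm over air it became 1 (Mfge8) with the stricter cell filter, in cells of 2.5 to 4% mitochondrial UMIs, without the cluster led by Hmox1 and Slc7a11, after division by the median ratio, and relative to genes of like span (added after seeing the data). For 1.5 ppm over 1 ppm it became 1 (Mfge8) in that mitochondrial band. The cause was not tested. Over 12 alternatives, 3 of them chosen after the data were seen, the log2 ratio at 1.5 ppm over air ranged from -0.53 to -0.31 for Mertk, -0.37 to -0.25 for Axl and -0.33 to -0.13 for Pros1. At 1.5 ppm over air Lrp1 changed sign in 5 alternatives (-0.06 to 0.13), as did Itgav at 1.5 ppm over 1 ppm in 5 (-0.05 to 0.06). At 1 ppm over air Cd300a changed sign in 2 (-0.12 to 0.18) and Pros1 in 1 (-0.18 to 0.07). Depth allowed no ratio for Gas6 or Stab1.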

Other observations

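Detection of the TAM receptors and Pros1 was compared cell by cell, as a description. With cells thinned to 4000 UMIs, 80.4%, 81.9% and 70.2% of alveolar-macrophage-like cells in air, 1 ppm and 1.5 ppm held a UMI of both Mertk and Axl, and 1.40%, 1.37% and 3.20% held neither. Axl was found in 80.2% (79.0 to 81.3%) of Mertk-positive cells at 1.5 ppm and in 74.4% (71.0 to 77.7%) of Mertk-negative ones. In air the shares were 86.8% (85.5 to 88.0%) and 81.1% (75.6 to 85.8%), and at 1 ppm 89.2% (87.8 to 90.6%) and 83.1% (76.7 to 88.4%). Pros1, a ligand of both receptors, was found in 55.3% (53.9 to 56.7%) of Mertk-positive cells at 1.5 ppm and 45.9% (42.1 to 49.7%) of Mertk-negative ones, in air in 59.5% (57.7 to 61.2%) and 44.4% (38.1 to 50.9%), and at 1 ppm in 60.9% (58.7 to 63.1%) and 50% (42.3 to 57.7%). Pros1 by Axl ran in no single direction. It was found in 58.7% (56.8 to 60.5%) of Axl-positive and 56.5% (51.7 to 61.1%) of Axl-negative cells in air, in 59.9% (57.6 to 62.1%) and 60.9% (54.4 to 67.2%) at 1 ppm, and in 55.1% (53.6 to 56.6%) and 50.6% (47.6 to 53.5%) at 1.5 ppm. The intervals overlapped in air and at 1 ppm and did not at 1.5 ppm.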
